A study of Mus musculus with 2 samples.

Results

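The cytosolic ribosomal proteins were followed here in regulatory T (Treg) cells, sorted as CD4+CD25hiYFP+ cells from spleen and lymph node of C57BL/6 mice that were 6 months old by the labels. They were taken as every gene whose symbol is Rpl or Rps followed by a number, with or without a letter and a further number, and 79 of the 16830 genes listed answered to that form. Of these, 47 belong to the large subunit and 32 to the small subunit. The set holds the 73 standard genes with such names and 6 minor paralogs (*Rpl22l1*, *Rpl7l1*, *Rpl39l*, *Rpl3l*, *Rps27l* and *Rps4y2*).

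The USP21-ΔTreg cells came from mice that carry Foxp3-YFP-Cre together with *Usp21* floxed on both alleles (UKO in the labels), so that the deubiquitinase gene *Usp21* is cut out where *Foxp3* is expressed. The WT cells came from mice that carry Foxp3-YFP-Cre alone. Both groups therefore share the Cre, which is a YFP fusion made from the *Foxp3* locus. Each genotype was sequenced as 1 library, and the number of mice behind a library is not given in the sources used here. The differences below therefore have no replicate check and compare these 2 libraries. Intervals beside ratios are 95% exact binomial (Clopper-Pearson) and cover counting error only.

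The USP21-ΔTreg library held about 23418575 fragments in genes and the WT library about 23198412. *Usp21* stood at 4.56 FPKM (sequenced fragments, scaled to the length of the transcript and the depth of the library) in USP21-ΔTreg cells, against 11.8 FPKM in WT cells, a ratio of scaled counts of 0.381 (0.321 to 0.451). Of 6 Treg markers, 3 (*Il2ra*, *Tnfrsf18* and *Folr4*) were at least 2-fold lower in the USP21-ΔTreg library on FPKM. Of all genes with a mean of at least 1 FPKM, 6.2% were. *Foxp3*, the lineage factor, was at 55.2 FPKM in USP21-ΔTreg cells against 91.8 FPKM in WT cells, and *Il2ra*, which encodes the CD25 used in the sort, at 19.3 FPKM in USP21-ΔTreg cells against 168 FPKM in WT cells. *Ctla4* and *Ikzf2* went the other way on FPKM (532 and 220 FPKM in USP21-ΔTreg cells, 516 and 186 FPKM in WT cells), though on scaled counts they were lower (−0.34 and −0.23). Markers of other cells were, in sum, higher in the USP21-ΔTreg library, though not each of them. The highest in that library, the erythroid *Hba-a1*, had 43.1 FPKM in USP21-ΔTreg cells and 8.84 FPKM in WT cells. *Hba-a2*, *Hbb-b1*, *Cd14* and *Ly6c2* were lower in USP21-ΔTreg cells. The summed levels were 25.6 FPKM in USP21-ΔTreg cells against 10.2 FPKM in WT cells for 5 B cell markers, 59.6 against 21.5 FPKM for 8 NK and CD8 T cell markers, and 55.9 against 31.0 FPKM for 8 myeloid markers. The 7 erythroid markers summed to 96.1 FPKM in USP21-ΔTreg cells and to 34.2 FPKM in WT cells, and 5 T cell markers to 1223 and 743 FPKM. No marker was at 0 in either library. The part that cells of other types have in the results below was not tested.

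A cytosolic ribosome joins a small subunit, which reads the messenger RNA, to a large subunit, which forms the peptide bond and carries the exit tunnel. Most of its proteins are present in a fixed copy number, and their messenger RNAs are among the most abundant of any dividing or activated lymphocyte. Most of these transcripts start with a C followed by a run of pyrimidines, the 5′ terminal oligopyrimidine (TOP) motif, through which mTOR complex 1 and LARP1 set their translation. MYC raises ribosome production when T cells leave rest. A few ribosomal proteins have further roles outside the ribosome, and several have a paralog made at a much lower level.

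The comparison of USP21-ΔTreg with WT cells asks how these transcripts stood in Treg cells of mice with floxed *Usp21*. Most were modestly lower. Fold changes are log2((FPKM in USP21-ΔTreg + 0.1)/(FPKM in WT + 0.1)), and the 10948 genes with a mean of at least 1 FPKM were kept, among them 77 of the 79. The median over these 77 was −0.25, with quartiles of −0.43 and −0.11 and a range of −1.97 to 0.43. Over all genes kept it was 0.20. Of the 77, 75 lay below that all-gene median and 64 were below 0, where 36.6% of all genes kept were.

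Large changes were few. At least 2-fold lower were 3 (*Rpl26*, *Rpl34* and *Rps4y2*) of the 77, beside 6.2% of all genes kept, and none was 2-fold higher, beside 7.78%. At least 1.2-fold lower were 37, where 22.3% of all genes kept were. Only *Rps15a* and *Rps27* were at least 1.2-fold higher, where 45.4% of all genes kept were, and the other 38 lay between these limits. In such bulk samples, fewer cells of a type and less RNA per cell cannot be told apart.

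The deposited counts, which the authors had scaled between libraries, gave a lower median. On that scale, with 1 added to each count, the median of the 77 was −0.34, with quartiles of −0.50 and −0.24, and that of all genes kept was −0.01. At least 2-fold lower were 2 of the 77, beside 7.91% of all genes kept, and 0 were 2-fold higher, beside 4.36%. At least 1.2-fold lower were 53 of the 77, beside 31.3% of all genes kept, and 1 was higher by that much, beside 29%. The counting interval of the ratio lay below 1 for 74 of the 77, beside 38.8% of all genes kept, and above 1 for 2, beside 35.9%. These intervals are narrow because the genes are deeply covered. A standard gene had a median of 15592 fragments in the USP21-ΔTreg library and 17399 in the WT library, where a kept gene of any kind had 821 and 783.5.

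**Figure D1:**
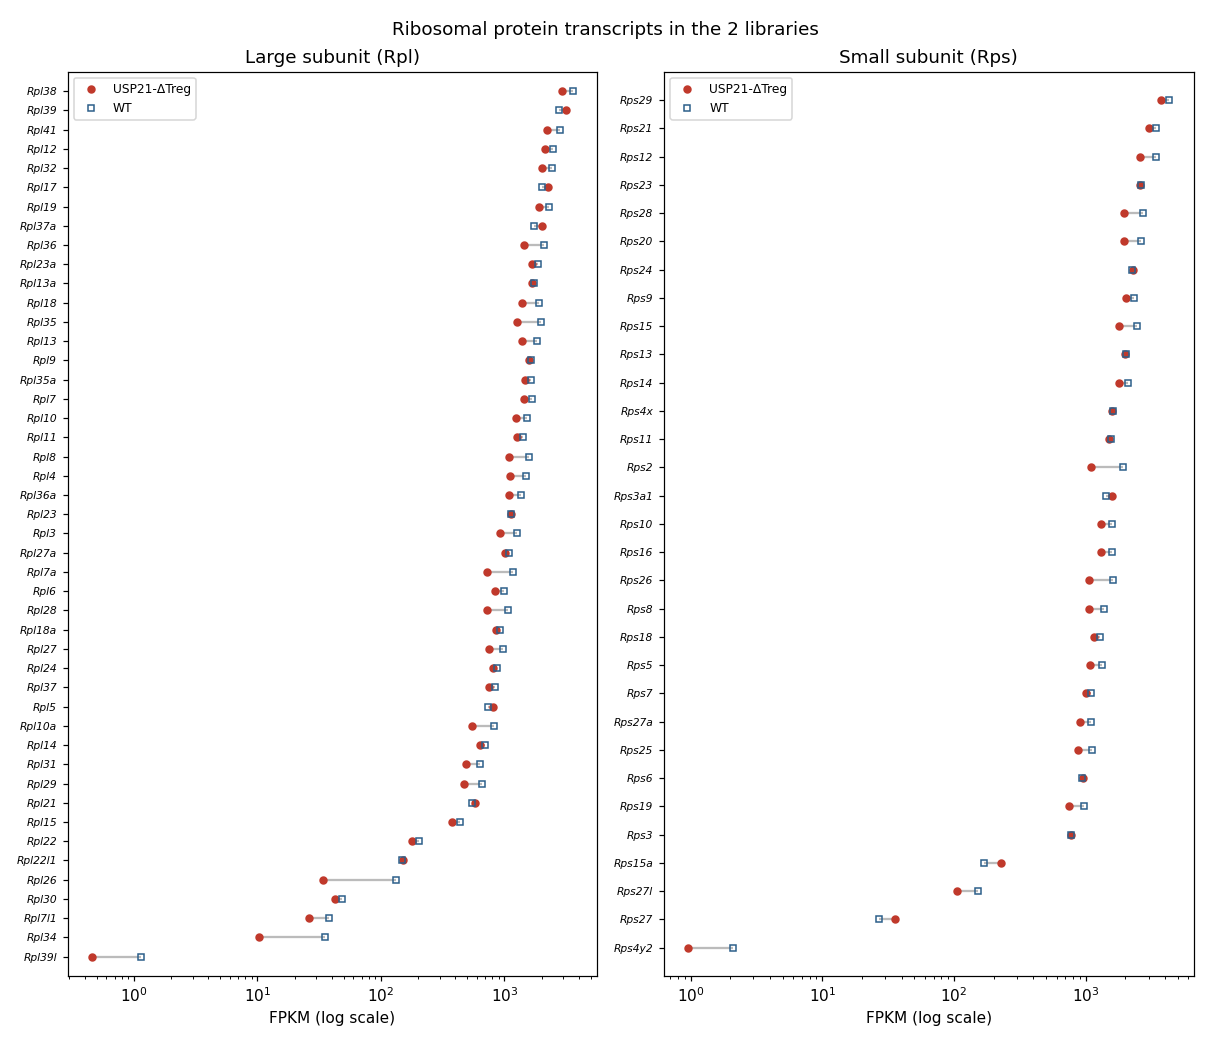
FPKM (log scale) of ribosomal protein genes in the USP21-ΔTreg library (filled circles) and the WT library (open squares), large subunit on the left and small subunit on the right, in order of mean level; a grey line joins the 2 values of a gene, and *Rpl3l*, listed at 0 in USP21-ΔTreg cells, is not drawn. Most circles lie left of their squares, and the widest gaps above 100 FPKM in either library are those of *Rpl26* and *Rps2*.

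As a whole, the 79 genes took 5.48% of all fragments in USP21-ΔTreg cells (5.47 to 5.49%) and 6.23% in WT cells (6.22 to 6.24%), a ratio of 0.880. Of the FPKM sum they took 12.2% in USP21-ΔTreg cells and 14.1% in WT cells. That sum is dominated by *Rmrp* and *Rpph1*, small noncoding RNAs, and without them the shares were 18.96% in USP21-ΔTreg cells and 20.97% in WT cells. The share was thus lower in USP21-ΔTreg cells by each measure.

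The subunits had similar medians. The large subunit genes took 3.19% of all fragments of the USP21-ΔTreg library and 3.69% of those of the WT library, and the small subunit genes 2.29% and 2.54%. The 45 large subunit genes kept had a median log2 fold change of −0.25 on FPKM, and the 32 small subunit genes of −0.24. At least 1.2-fold lower were 21 of the 45 and 16 of the 32, beside 22.3% of all genes kept, and the 2 higher ones were both of the small subunit, beside 45.4%. On scaled counts the medians were −0.39 and −0.31, and the share ratios were 0.866 and 0.900. Without replicates, none of these differences between subunits could be tested.

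Apart from *Rpl26* and *Rpl34*, whose positions hold most of their fragments in other rows as described further on, and the thinly covered *Rps4y2*, *Rps2* was the lowest of the genes kept. *Rps2*, at chr17:24720063-24721927 (mm10), makes a protein near the channel by which messenger RNA enters the small subunit. It stood at 1092 FPKM in USP21-ΔTreg cells, against 1929 FPKM in WT cells, a log2 fold change of −0.82 and a ratio of scaled counts of 0.578 (0.568 to 0.588). *Rpl7a*, of the large subunit (chr2:26910807-26913311), followed with 717 FPKM in USP21-ΔTreg cells and 1168 FPKM in WT cells, a log2 fold change of −0.70. At least 1.5-fold lower on both scales were 9 of the 77, near the 11.8% of all genes kept that were. These 2 genes were among them, as were *Rpl35*, *Rps26*, *Rpl10a*, *Rpl26*, *Rpl34* and *Rps4y2*. The next ones were named after their values were seen. *Rpl35*, whose protein sits at the mouth of the exit tunnel, had 1277 FPKM in USP21-ΔTreg cells and 1997 FPKM in WT cells. *Rpl10a*, part of the mobile stalk that helps spent transfer RNA to leave, had 542 FPKM in USP21-ΔTreg cells and 817 FPKM in WT cells. The 9 are split between subunits, 5 large and 4 small.

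The genes at the upper end moved little. *Rps15a*, a small subunit gene, had 226 FPKM in USP21-ΔTreg cells and 168 FPKM in WT cells, a log2 fold change of 0.43, but only 0.05 on scaled counts. *Rpl37a* had 1999 FPKM in USP21-ΔTreg cells and 1746 FPKM in WT cells (0.19), and on scaled counts −0.05. *Rpl39*, which makes a small protein lining the exit tunnel, had 3140 FPKM in USP21-ΔTreg cells and 2754 FPKM in WT cells (0.19), and a ratio of scaled counts of 1.02 (0.999 to 1.05). *Rpl17*, another tunnel protein, had 2242 FPKM in USP21-ΔTreg cells and 2013 FPKM in WT cells (0.16), and −0.06 on scaled counts. Only *Rps15a*, *Rps27* and *Rpl39* were above 0 on both scales, and *Rpl39* not beyond its counting interval. Set against the median of all genes kept, only *Rps15a* and *Rps27* were higher on FPKM.

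Taking each row as listed, the 5 most abundant members were lower, with *Rpl39* as the exception. *Rps29*, the highest of these rows, had 3718 FPKM in USP21-ΔTreg cells and 4319 FPKM in WT cells (−0.22). *Rpl38* had 2920 FPKM in USP21-ΔTreg cells and 3593 FPKM in WT cells (−0.30). Its protein is known in mouse for its part in the translation of *Hox* messenger RNAs. *Rps21* had 3046 FPKM in USP21-ΔTreg cells and 3410 FPKM in WT cells (−0.16). *Rps12* had 2599 FPKM in USP21-ΔTreg cells and 3408 FPKM in WT cells (−0.39). On FPKM, abundance did not order the fold changes. Across the 76 members with a reference transcript, Spearman's rho between mean FPKM and log2 fold change was 0.07 on FPKM and 0.37 on scaled counts, given as a description across genes that share both libraries.

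**Figure D2:**
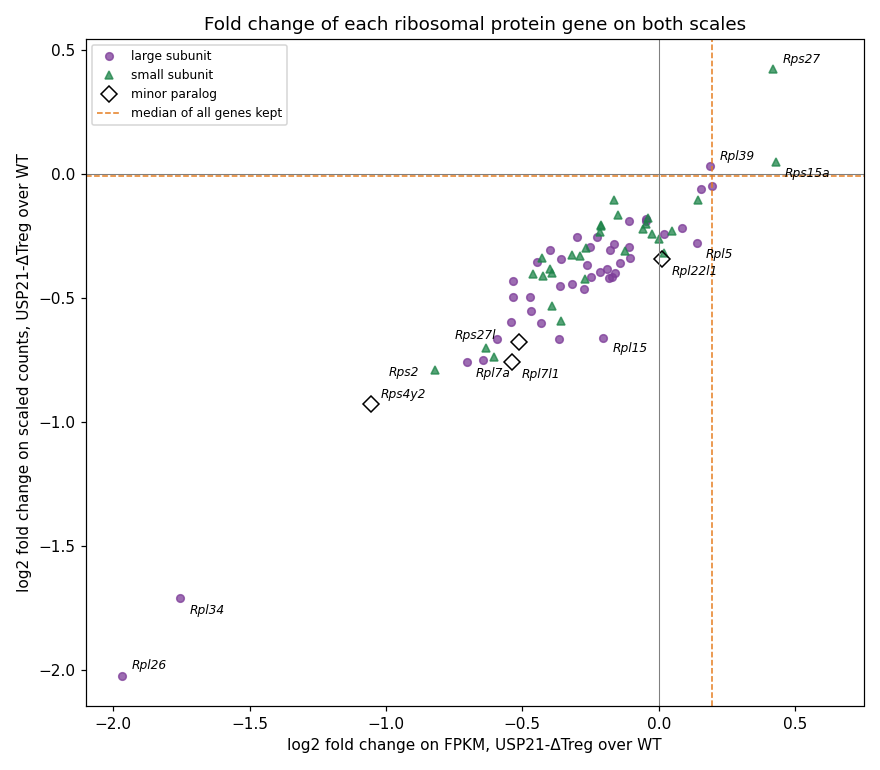
Log2 fold change, USP21-ΔTreg over WT, of the 77 ribosomal protein genes kept, on FPKM (horizontal) and on scaled counts (vertical); circles are large subunit genes, triangles small subunit genes, diamonds minor paralogs, and dashed lines the medians of all genes kept (0.20 and −0.01). The cloud lies below the dashed lines on both scales, except for *Rps27*, *Rps15a* and *Rpl39*.

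For 10 members the direction depended on the scale. *Rpl17*, *Rpl21*, *Rpl22l1*, *Rpl23*, *Rpl37a*, *Rpl5*, *Rps24*, *Rps3*, *Rps3a1* and *Rps6* were above 0 on FPKM and below 0 on scaled counts, and none went the other way. The scales differ in this direction for genes at large. The log2 fold change on FPKM minus that on counts had a median of 0.19 over all genes kept. Over the standard members that median was 0.12. How many of all genes kept changed direction was not counted, so the 10 are not read as particular to the members. The log2 fold change on FPKM exceeded that on counts most for *Rpl15* (−0.20 on FPKM, −0.66 on counts), *Rpl5* (0.14 and −0.28) and *Rps15a*. It fell short of it most for *Rps4y2*, *Rpl36* (−0.54 on FPKM, −0.43 on counts) and *Rpl13* (−0.40 and −0.31). This gap followed the GC content of the transcript. Spearman's rho was −0.73 over the 76 members with a reference transcript, and −0.90 over 10340 genes kept. *Rpl15*, *Rpl5* and *Rps15a* have transcripts of 43.2%, 42.7% and 45.4% GC, while those of *Rpl36* and *Rpl13* have 60.8% and 57.1%. Against GC itself, the log2 fold change of the members had a rho of −0.49 on FPKM and −0.17 on scaled counts. These correlations are descriptions across genes of the same 2 libraries.

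At 4 members another row at the same position held most of the fragments. The table lists a row named for a processed copy (retrocopy) at the very position of the parent gene, and that row carries nearly all fragments. At the *Rps27* position (chr3:90212667-90213648) the row named *Gm9846* had 8134 FPKM in USP21-ΔTreg cells and 6605 FPKM in WT cells, whereas the *Rps27* row had 35.9 FPKM in USP21-ΔTreg cells and 26.8 FPKM in WT cells. Of the fragments of both rows, the *Rps27* row held 1.09% in USP21-ΔTreg cells and 0.910% in WT cells. In RefSeq the gene that has *Gm9846* as a synonym is *Rps27rt*, on chromosome 9 (chr9:114982366-114982739, GRCm38, the assembly of mm10). The reference coding sequences of *Rps27* and *Rps27rt* are the same over all 255 bases, and their transcripts over all 341 aligned bases, so reads within these bases cannot be told apart, and which gene the fragments came from was not tested. The shared coding sequence, shown because the rows are also given as a sum on its account, reads from GENCODE as follows, start codon first.
Rps27 and Rps27rt: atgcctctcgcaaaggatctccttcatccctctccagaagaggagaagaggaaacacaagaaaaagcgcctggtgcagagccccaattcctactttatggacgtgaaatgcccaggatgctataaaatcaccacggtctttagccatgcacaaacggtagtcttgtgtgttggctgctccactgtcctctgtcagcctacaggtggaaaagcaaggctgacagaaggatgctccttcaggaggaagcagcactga

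Taken as a sum of both rows, the *Rps27* position was higher in USP21-ΔTreg cells and was the most abundant of all these genes. It had 8170 FPKM in USP21-ΔTreg cells, against 6632 FPKM in WT cells, a log2 fold change of 0.30 on FPKM and 0.17 on scaled counts. The ratio of scaled counts was 1.12 (1.10 to 1.14). Its direction, opposite to that of most of the set, was thus not confined to the thinly covered *Rps27* row.

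The sums also changed the picture for *Rpl26* and *Rpl34*, whose own rows were the lowest of the set. The *Rpl26* row (chr11:68901566-68904534) had 33.7 FPKM in USP21-ΔTreg cells and 132 FPKM in WT cells, a log2 fold change of −1.97. Its protein is known to bind the messenger RNA of p53. With *Gm15772*, listed at the same position, the sum was 1624 FPKM in USP21-ΔTreg cells and 1916 FPKM in WT cells, a log2 fold change of −0.24 and a ratio of scaled counts of 0.814 (0.796 to 0.832). Of the fragments of this sum, the *Rpl26* row held 2.22% in USP21-ΔTreg cells and 7.34% in WT cells.

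The *Rpl34* row (chr3:130726831-130730329) had 10.4 FPKM in USP21-ΔTreg cells and 35.3 FPKM in WT cells (−1.75), from 102 and 300 fragments. With *Rpl34-ps1* the sum was 2264 FPKM in USP21-ΔTreg cells and 2451 FPKM in WT cells, a log2 fold change of −0.11. *Rpl30* with *Gm12191* came to 2289 FPKM in USP21-ΔTreg cells and 2217 FPKM in WT cells, 0.05 on FPKM and −0.19 on scaled counts. The 2-fold differences of *Rpl26* and *Rpl34* were therefore in rows that held few of the fragments at their position, and the sums lay inside the range of the other members. The retrocopy transcripts differ from the parent by 2 of 438 aligned bases for *Gm15772*, 2 of 354 for *Rpl34-ps1* and 1 of 348 for *Gm12191*.

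**Figure D3:**
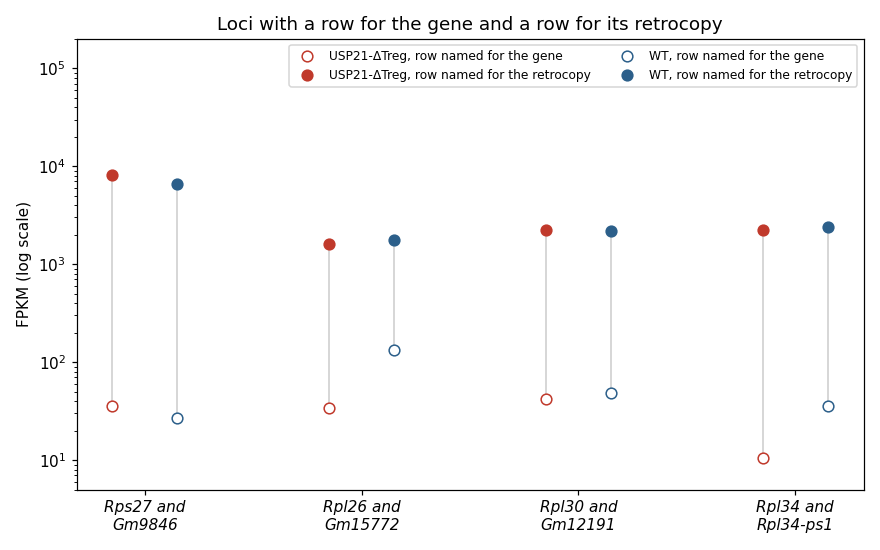
FPKM (log scale) at the 4 positions where the table has a row named for the gene (open) and a row named for its retrocopy (filled), USP21-ΔTreg library left and WT library right at each. The retrocopy row carries nearly all of the signal, and only the open symbols of *Rpl26* and *Rpl34* differ widely between libraries.

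Leaving out these 4, the 69 other standard genes ranged from −0.82 to 0.43, with a median of −0.23 on FPKM and −0.34 on scaled counts. None was changed 2-fold on FPKM, where 6.2% of all genes kept were lower and 7.78% higher by that much. At least 1.2-fold lower were 32, beside 22.3% of all genes kept, and 1, *Rps15a*, was higher, beside 45.4%. For *Rps15a* itself (chr7:118104376-118116147), rows named *Rps15a-ps4* and *Rps15a-ps6* went in opposite directions. *Rps15a-ps4* had 48.7 FPKM in USP21-ΔTreg cells and 12.6 FPKM in WT cells, and *Rps15a-ps6* had 3.62 FPKM in USP21-ΔTreg cells and 30.4 FPKM in WT cells. Added together, the *Rps15a* rows gave 278 FPKM in USP21-ΔTreg cells and 211 FPKM in WT cells, 0.40 on FPKM and 0.04 on scaled counts. A further 9 members share their listed position with a row of some other name, and 66 stand alone.

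The minor paralogs had, at the median, lower fold changes than the standard genes. The 4 that were kept had a median log2 fold change of −0.53 on FPKM and −0.72 on scaled counts, where the 73 standard genes had −0.23 and −0.34. *Rpl7l1*, close to *Rpl7*, had 26.1 FPKM in USP21-ΔTreg cells and 37.9 FPKM in WT cells (−0.54). *Rpl7* itself had 1430 FPKM in USP21-ΔTreg cells and 1662 FPKM in WT cells, so the paralog stood at 1.82% of it in USP21-ΔTreg cells and 2.28% in WT cells. *Rps27l*, a p53 target in human and mouse cells, had 106 FPKM in USP21-ΔTreg cells and 151 FPKM in WT cells (−0.51; ratio of scaled counts 0.625, 0.564 to 0.692). Relative to both rows at the *Rps27* position it stood at 1.29% in USP21-ΔTreg cells, against 2.27% in WT cells. *Rps27l* was thus lower in USP21-ΔTreg cells where the sum at *Rps27* was higher.

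On scaled counts, *Rpl22l1* was the paralog that kept pace with its partner. *Rpl22* is needed for the growth of αβ T cell precursors in mouse, and *Rpl22l1* is its paralog, repressed by it in mouse. *Rpl22l1* had 151 FPKM in USP21-ΔTreg cells and 149 FPKM in WT cells (0.01), with −0.34 on scaled counts. *Rpl22* had 177 FPKM in USP21-ΔTreg cells and 202 FPKM in WT cells (−0.19), with −0.39 on scaled counts. The ratio of paralog to partner was 84.9% in USP21-ΔTreg cells and 73.8% in WT cells on FPKM, but 12.3% and 11.9% on scaled counts, which are not per length. The balance of this pair therefore differed between the libraries on FPKM and hardly on counts.

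The remaining paralogs were near the floor. *Rps4y2* (a RefSeq synonym of *Rps4l*) had 0.958 FPKM in USP21-ΔTreg cells and 2.099 FPKM in WT cells, from 16 and 28 fragments, while its partner *Rps4x* had 1583 and 1612 FPKM. *Rpl39l* had 0.455 FPKM in USP21-ΔTreg cells and 1.14 FPKM in WT cells, from 6 and 17 fragments, and *Rpl3l* was listed at 0 in USP21-ΔTreg cells with 1 fragment in WT cells. *Rpl3l* is the paralog of striated muscle, and its partner *Rpl3* had 923 FPKM in USP21-ΔTreg cells and 1276 FPKM in WT cells (−0.47). The coding sequences of *Rpl3l*, *Rpl7l1*, *Rpl22l1* and *Rps27l* matched those of their partners at 59.9% (*Rpl7l1*) to 76.1% (*Rps27l*) of aligned bases. They thus differ from their partners far more than the retrocopies do from their parents. *Rpl39l* is left out, because the stretch read for *Rpl39* had 168 bases and that for *Rpl39l* 156. Sequences were read as the longest stretch from a start to a stop codon, which for *Rpl39* may not be the coding sequence.

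Ribosomal proteins with roles outside the ribosome did not stand apart from the set. The 17 listed had a median of −0.19 on FPKM and −0.34 on scaled counts, with 8 at least 1.2-fold lower, beside 22.3% of all genes kept, and 1 (*Rps27*) higher, beside 45.4%. *Rpl5* and *Rpl11* form with 5S ribosomal RNA the particle that binds MDM2 when ribosome assembly fails. *Rpl5* had 816 FPKM in USP21-ΔTreg cells and 741 FPKM in WT cells, with 0.825 (0.813 to 0.836) as the ratio of scaled counts. *Rpl11* had 1263 FPKM in USP21-ΔTreg cells and 1428 FPKM in WT cells, with 0.808 (0.790 to 0.826). The partners thus had near-equal ratios of counts, though on FPKM their directions were opposite. *Rpl23*, which also binds MDM2, had 1142 FPKM in USP21-ΔTreg cells and 1128 FPKM in WT cells, with 0.845 (0.831 to 0.860).

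*Rps6*, the substrate of the S6 kinases, had 950 FPKM in USP21-ΔTreg cells and 939 FPKM in WT cells (0.02; −0.32 on scaled counts). *Rps3*, which has been tied to NF-κB in T cells, had 769 FPKM in both USP21-ΔTreg and WT cells (−0.26 on scaled counts). These genes were level between libraries on FPKM only. *Rpl13a*, of the interferon-γ-activated complex that silences messenger RNAs in human myeloid cells, had 1666 FPKM in USP21-ΔTreg cells and 1722 FPKM in WT cells (−0.05).

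Other members of that list were lower on both scales. *Rps26*, at the exit channel of messenger RNA, had 1057 FPKM in USP21-ΔTreg cells and 1608 FPKM in WT cells (−0.60 on FPKM, −0.74 on scaled counts). *Rps19*, the first gene tied to Diamond-Blackfan anaemia, had 742 FPKM in USP21-ΔTreg cells and 978 FPKM in WT cells (−0.40). *Rps25*, required by some viral internal ribosome entry sites, had 873 FPKM in USP21-ΔTreg cells and 1118 FPKM in WT cells (−0.36). *Rps26* was the lowest of the list. *Rps27a*, which is made as a fusion with ubiquitin, had 911 FPKM in USP21-ΔTreg cells and 1099 FPKM in WT cells (−0.27). *Rpl10*, among the last proteins to join the large subunit, had 1251 FPKM in USP21-ΔTreg cells and 1512 FPKM in WT cells (−0.27). *Rpl41*, with the shortest protein of the set, had 2198 FPKM in USP21-ΔTreg cells and 2818 FPKM in WT cells (−0.36). Of 18 genes of Diamond-Blackfan anaemia, 9 were at least 1.2-fold lower, beside 22.3% of all genes kept, and 2 higher, beside 45.4%, with a median of −0.24. That list includes the rows of *Rpl26* and *Rps27*, which hold few of the fragments at their positions.

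The cytosolic ribosomal proteins whose names do not follow the numbered form were lower too. All 8, among them *Rplp0*, *Rplp1*, *Rplp2*, *Rpsa*, *Fau*, *Gnb2l1* and *Rpl36al*, lay between −0.49 and −0.15, with a median of −0.28 on FPKM and −0.27 on scaled counts. *Rplp0*, whose protein is the base of the acidic stalk that calls in elongation factors, had 1561 FPKM in USP21-ΔTreg cells and 1826 FPKM in WT cells. *Gnb2l1*, whose protein is RACK1 on the small subunit, had 991 FPKM in USP21-ΔTreg cells and 1209 FPKM in WT cells. *Rpl36al*, a retrogene copy of *Rpl36a*, was the lowest with 386 FPKM in USP21-ΔTreg cells and 541 FPKM in WT cells (−0.49).

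Genes that build or run ribosomes were set beside the members. The 76 mitochondrial ribosomal proteins had a median of −0.19 on FPKM and −0.40 on scaled counts, near the −0.25 and −0.34 of the cytosolic ones. The 77 genes of ribosome biogenesis and RNA polymerase I were much lower, with medians of −0.89 and −1.12. Of these, 34 were at least 2-fold lower on FPKM, beside 6.2% of all genes kept, and none was higher, beside 7.78%. Of the 77 cytosolic ribosomal proteins kept, 3 were lower by that much. The lowest were *Rrp12*, an export factor of pre-ribosomes (1.95 FPKM in USP21-ΔTreg cells, 10.0 FPKM in WT cells), and *Mrto4*, a placeholder in assembly of the large subunit (6.66 and 29.7 FPKM). Next came *Ppan* (9.45 FPKM in USP21-ΔTreg cells, 38.7 FPKM in WT cells) and *Nhp2*, of the H/ACA particles that guide pseudouridylation (14.8 and 57.1 FPKM). The structural proteins thus had a median nearer to 0 than the assembly factors. That difference could not be tested with 1 library per genotype.

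**Figure D4:**
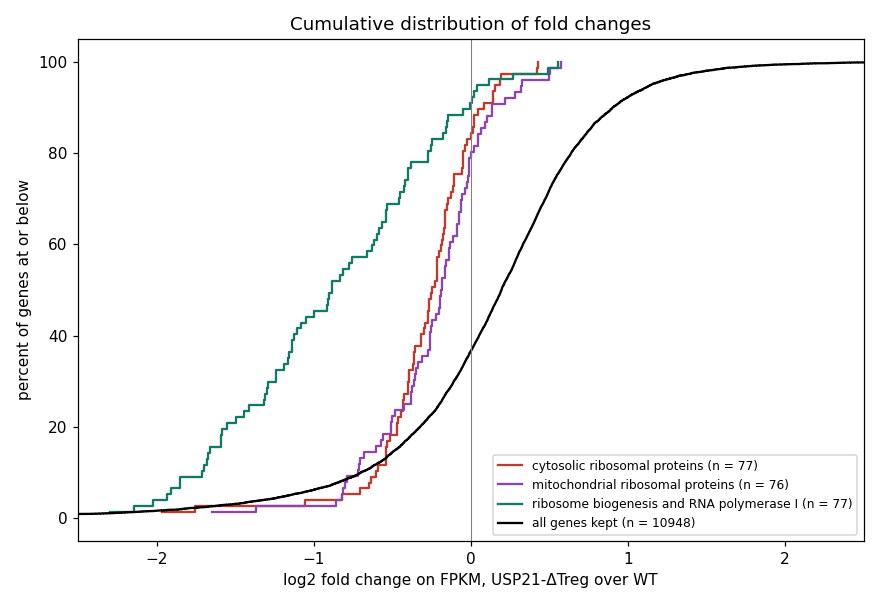
Cumulative percent of genes at or below each log2 fold change on FPKM, USP21-ΔTreg over WT, for the cytosolic ribosomal proteins, the mitochondrial ribosomal proteins, ribosome biogenesis and RNA polymerase I, and all genes kept. The cytosolic and mitochondrial ribosomal proteins rise steeply around medians of −0.25 and −0.19, the biogenesis genes lie further left (−0.89), and all genes kept are centred on 0.20.

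Other TOP messenger RNAs went with the ribosomal proteins in part. The 16 listed had a median of −0.09 on FPKM and −0.31 on scaled counts. On FPKM, 6 were at least 1.2-fold lower, beside 22.3% of all genes kept, and 2 higher, beside 45.4%. The largest differences were in *Hnrnpa1* (146 FPKM in USP21-ΔTreg cells, 270 FPKM in WT cells), *Npm1*, a nucleolar chaperone (352 and 626 FPKM), and *Eef1g*, a subunit of elongation factor 1 (288 and 476 FPKM). *Gas5*, a host of small nucleolar RNAs, had 55.0 FPKM in USP21-ΔTreg cells and 79.1 FPKM in WT cells. *Eef1a1*, the main elongation factor, was named after its values were seen, and had 5436 FPKM in USP21-ΔTreg cells and 5484 FPKM in WT cells.

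Among 24 regulators of ribosomal protein messenger RNAs, 5 were at least 2-fold lower, beside 6.2% of all genes kept, and none was 2-fold higher, beside 7.78%. Their median was 0.19 on FPKM and −0.05 on scaled counts, with 10 lower and 10 higher by 1.2-fold or more on FPKM, beside 22.3% and 45.4% of all genes kept. The list was thus split. *Myc* had 7.54 FPKM in USP21-ΔTreg cells and 50.05 FPKM in WT cells, a log2 fold change of −2.71. *Eif4ebp1*, which holds back the cap-binding factor eIF4E, had 11.03 FPKM in USP21-ΔTreg cells and 46.1 FPKM in WT cells. The helicase gene *Eif4a1* had 168 FPKM in USP21-ΔTreg cells and 479 FPKM in WT cells. These were larger differences than in any ribosomal protein gene outside the 4 positions with paired rows. *Larp1*, whose protein binds TOP messenger RNAs, had 15.9 FPKM in USP21-ΔTreg cells and 37.8 FPKM in WT cells, a log2 fold change of −1.24. *Larp4*, the last of the 5, was named after its values were seen and had 18.9 FPKM in USP21-ΔTreg cells and 43.5 FPKM in WT cells. *Mtor* itself, also named after its values were seen, had 9.49 FPKM in USP21-ΔTreg cells and 8.50 FPKM in WT cells. At the upper end, also named after their values were seen, *Rps6ka3* had a log2 fold change of 0.83, *Tsc1* of 0.61, *Tsc2* of 0.59 and *Rptor* of 0.46. Their part in the levels of the ribosomal protein transcripts was not tested.

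The start sites were read for the pyrimidine run. RefSeq start site windows (GRCm38.p6) were at hand for 54 of the 73 standard genes, each from 250 bases before the start to 50 bases after it. An unbroken run of at least 8 C or T was sought in the sense of the transcript, within 20 bases either side of the start. It was found in 27 of the 54 (50%), against 19.1% of all kept genes with a window and 19.4% of the mitochondrial ribosomal proteins. A run of 8 purines was found in 9.26%, against 18.8% of all kept genes. The large subunit had the run in 53.1% of windows and the small subunit in 45.5%.

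The letters CCGGAAG, on either strand of the whole window, a motif of the ETS factor kind, were found in 40.7% of these windows, 22.3% of those of all kept genes and 35.8% of those of mitochondrial ribosomal proteins. On the other strand these letters hold CTTCC, so a match can overlap a pyrimidine run. A match is a description of the letters and not a site of binding.

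The windows below, 14 bases before the annotated start and 16 from it, are shown so that the runs of genes from across the range of fold changes can be compared. Capitals mark the longest pyrimidine run.
Rpl7a (chr2:26910793-26910822, plus strand): TTCCCTCTTCTTTCTTTCTCCagcagccga
Rpl35 (chr2:39005116-39005145, minus strand): ggccccgCCCTTTCCTCTTTCTCTCgaacc
Rps26 (chr10:128626491-128626520, minus strand): tcgggcaagccgccggaTCCTCTTTCgagt
Rps2 (chr17:24720049-24720078, plus strand): ggcagtcgagatctcgcgCTTCTTggagca
Rps6 (chr4:86857352-86857381, minus strand): agcggaagtcgggCCTCTTTTTCgtgacgc
Rpl38 (chr11:114668566-114668595, plus strand): gcggaagcctcgTTCTTTCCCCgttctctt
Rps27 (chr3:90213633-90213662, minus strand): tttccgctttcgCTCCTTTCCggcggtgac

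The runs have 21 bases in *Rpl7a*, 18 in *Rpl35*, 9 in *Rps26*, 6 in *Rps2*, 10 in *Rps6*, 10 in *Rpl38* and 9 in *Rps27*. *Rps2*, the lowest of the standard genes outside the paired rows, has the shortest run of those shown, while *Rps27* and *Rps26*, with runs of 9 bases each, lay at opposite ends of the fold changes. These examples were chosen after their values were seen, and no relation of run length to fold change is read from them.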

How the data were processed

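RNA of sorted Treg cells of each genotype was made into 1 library and sequenced by the authors. Reads were cleared of ribosomal RNA and low-quality reads and mapped to mm10 with TopHat2 2.0.9, and Cufflinks 2.1.1 gave the deposited FPKM values, which are per transcript length and library size. The deposited estimated counts are fragment counts that the authors scaled between libraries. They sum to 21487430 in USP21-ΔTreg and 23872114 in WT cells. The commonest value was taken as that of 1 fragment (0.918 and 1.03), which gave whole numbers within 0.02 for 97.2% of values. No count test was run. The labels name Trizol and a TruSeq RNA kit not described as stranded, the study's methods RNeasy and a stranded one, so the use of strand in counting is unsure.

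A pseudocount of 0.1 FPKM was added for log2 fold changes, which understates those of low genes, and genes with a mean of at least 1 FPKM were kept. Limits were 2-fold and 1.2-fold. With 1 library per genotype there was no test and no p-value. Members, lists and alternatives were chosen with earlier results of these data known. Genes named were the 5 highest and 5 lowest fold changes, the 5 most abundant members, paralogs with partners, members with further roles, the 3 widest gaps between scales either way, ribosomal proteins outside the symbol form, and up to 4 genes of other lists with the largest difference; others are said to be named later. *Usp21*, *Foxp3* and *Il2ra* served as checks of the labels. Alternatives were other pseudocounts and filters, scaled counts, other centrings and scalings, other member sets, and the paired rows summed. Coordinates are those of the files, with starts counted from 1. GENCODE M21 gave transcripts and coding sequences, and RefSeq start sites and copies, on the same assembly. Scripts ran in Python 3.11.15 with pandas 2.3.3, numpy 2.4.6, biopython 1.88, scipy 1.17.1 and matplotlib 3.10.9, and were tested on simulated data. Some single results are not reported here or drawn in the plot of levels.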

Additional observations from a re-analysis of the deposited data

How the results depend on the processing

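No paired analysis was possible because there was 1 library of each genotype. The median log2 fold change of the members, −0.25 on FPKM, stayed below 0 under every alternative run. It moved to −0.34 on scaled counts (large subunit −0.39), and to −0.34 when the paired rows were also summed, an alternative chosen after seeing the data. Centring on the median of all genes kept put it at −0.45, with −0.45 for the large and −0.44 for the small subunit. That centring raised the number at least 1.2-fold lower to 58 and cut the number higher to 0. It lowers every gene alike, and the shares of all genes kept past these limits after it were not counted. Scaled counts left 1 higher, and 0 with the paired rows summed. Summing the paired rows left 1 member at least 2-fold lower on FPKM (*Rps4y2*) and 0 on scaled counts. The share ratio, 0.880 on fragments, was 0.866 on the FPKM sum and 0.904 without its 2 highest genes. As log2 ratios, USP21-ΔTreg over WT, *Rpl22l1* relative to *Rpl22* was 0.20 on FPKM and 0.041 on scaled counts, and *Rps27l* relative to the *Rps27* row −0.93 and −1.10. Of 44 genes named, 7 changed sign on scaled counts, where the cause was not tested, and 0 with another pseudocount or filter. Centring, the same upper quartile and the same FPKM sum shift all genes by one constant, so that the 8, 4 and 1 that changed sign there are genes near 0. Depth limits mainly the thinly covered rows, namely *Rpl39l*, *Rpl3l*, *Rps4y2* and the rows of *Rpl34*, *Rpl30*, *Rps27* and, in USP21-ΔTreg cells, *Rpl26*.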
